A study of Danio rerio with 20 samples.

Results

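Gene expression was compared in the testes of F2 zebrafish whose F0 ancestors had met either 2,3,7,8-tetrachlorodibenzo-p-dioxin (TCDD) or its solvent dimethyl sulfoxide (DMSO). The comparison used the 10 F2 arrays of a series of 20, 5 from the TCDD lineage and 5 from the DMSO lineage. All fish were wild-type adult males of the AB strain, 1 year old, and testicular tissue was the source of RNA. The F0 fish had spent 1 h in water holding TCDD at 50 pg/ml, or DMSO alone, at 3 weeks and once more at 7 weeks after fertilization. The F1 and F2 fish were never placed in the treated water themselves, and the titles describe the F2 generation as transgenerational. Each array held RNA of 1 fish. Families and tanks are not given in the labels, and p-values therefore cover only the spread among the sampled fish.

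TCDD binds the aryl hydrocarbon receptor (AHR), a ligand-activated transcription factor that induces genes for xenobiotic metabolism such as cyp1a and cyp1b1 and is held back by the AHR repressor. The zebrafish testis is built of cysts in which Sertoli cells surround germ cells at successive stages of meiosis and spermiogenesis, with hormone-producing Leydig cells between them. Its RNA is a mixture of these cells and of any attached tissue, so a lower signal in such bulk tissue cannot tell fewer cells of a type from less RNA per cell.

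The arrays carried 75212 features, and 14289 of them shared their values on all 10 arrays with other features, up to 13 together. Each distinct profile of values was used once, which left 65942 profiles. The values were signals on a log2 scale, where a difference of 1 is a 2-fold difference. A single gene symbol was available for 20844 profiles, covering 19297 genes, while 44298 profiles had no symbol and 800 had several. Array medians lay between 6.18 and 6.26 and lower quartiles between 4.65 and 4.80 over the 10 arrays. Pairs of fish correlated at 0.893 to 0.979 within the TCDD lineage, at 0.925 to 0.976 within the DMSO lineage and at 0.906 to 0.977 between lineages. TCDD fish 3 had the lowest mean correlation with the other fish (0.931), followed by DMSO fish 4 (0.940).

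Markers of testis cells were read beside markers of other tissues. For comparison, of all 65942 profiles 27640 lay above the array median in every TCDD fish and 28296 in every DMSO fish. All 6 measured profiles of germ cell markers (ddx4, piwil1, dazl, sycp3 and tdrd1), all 4 of Sertoli cell markers (amh, gsdf, dmrt1 and sox9a) and all 4 of Leydig cell markers (insl3, star, cyp17a1 and cyp11c1) lay above the array median in every fish. Of 7 profiles of ovary markers, 1 lay above the median in every fish and 2 lay under the lower quartile in every fish. The muscle markers mylpfa, a myosin light chain, and ckma, a muscle creatine kinase, varied widely between fish, from 4.99 to 11.25 and from 5.00 to 10.77. Their difference between lineages was -1.79 for each, with limma adjusted p = 0.989 for mylpfa and 0.99 for ckma. Whether muscle RNA had a part in the lineage differences below was not tested. Neither blood marker on the list, hbaa1 nor hbba1, was among the named features.

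The first question was which transcripts differed between the lineages. At an adjusted p under 0.05 (limma, Benjamini-Hochberg over all 65942 profiles), 72 profiles differed, 0.109% of those tested. Of these, 43 were higher in the TCDD lineage (0.0652%) and 29 were lower (0.044%). The leading named changes were the lower signals of ccr11.1, a gene of the chemokine receptor family, and LOC100006764, and the higher signal of si:ch211-181d7.1. The 12 changed profiles with a single symbol also held genes of the mitochondrial ribosome (mrps22, mrpl47), ubiquinone synthesis (coq7) and signal peptide cleavage (spcs3), all higher. A second profile of mrps22 and of mrpl47 did not pass. Other genes of the mitochondrial ribosome or of ubiquinone synthesis were not examined as a group. The calls of mrpl47, coq7 and spcs3 were lost on removal of some single fish, for spcs3 of any fish. At an unadjusted p under 0.05, 3657 profiles (5.55%) differed, 1964 higher and 1693 lower. Across all profiles the median difference was -0.005 and the median absolute difference 0.133.

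These 72 profiles are called changed from here on. The absolute log2 difference of the changed profiles ran from 0.86 to 5.28, with a median of 1.87, and reached 1 in 70 of the 72 profiles, 2 in 32, 3 in 13 and 4 in 4. The median was 1.99 among the higher profiles and -1.81 among the lower ones. The lineages did not overlap in any of the 72 profiles, against 834 of all profiles (1.26%). The test that selected the 72 favours such a separation, so this gives no separate support for them. The gap between the nearest fish of the lineages ranged from 0.25 to 3.75 with a median of 0.98, and it reached 1 in 34 profiles and 2 in 7. A test of whether the difference exceeded 2-fold (limma treat) was passed by 7 profiles, 5 higher and 2 lower, the named ones being ccr11.1, LOC100006764 and si:ch211-181d7.1.

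The count depended on which fish were in the fit. Any removal also leaves the test with fewer fish and less power, so a lost call does not by itself mark the removed fish as unusual. With 1 fish left out, the number of changed profiles ranged from 41 to 120. It was 120 without TCDD fish 1, 43 without TCDD fish 2, 46 without TCDD fish 5, 41 without DMSO fish 2 and 45 without DMSO fish 3. Of the 72 profiles, 37 passed whichever fish was removed and 35 lost the call in at least 1 removal. An alternative chosen after seeing the data, without TCDD fish 3 and DMSO fish 4 together, gave 108 changed profiles, of which 51 were among the 72. With all 20 arrays in the fit, which then share 1 estimate of spread, 48 profiles had changed, of which 31 were among the 72 and 41 of the 72 calls were lost.

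**Figure D1:**
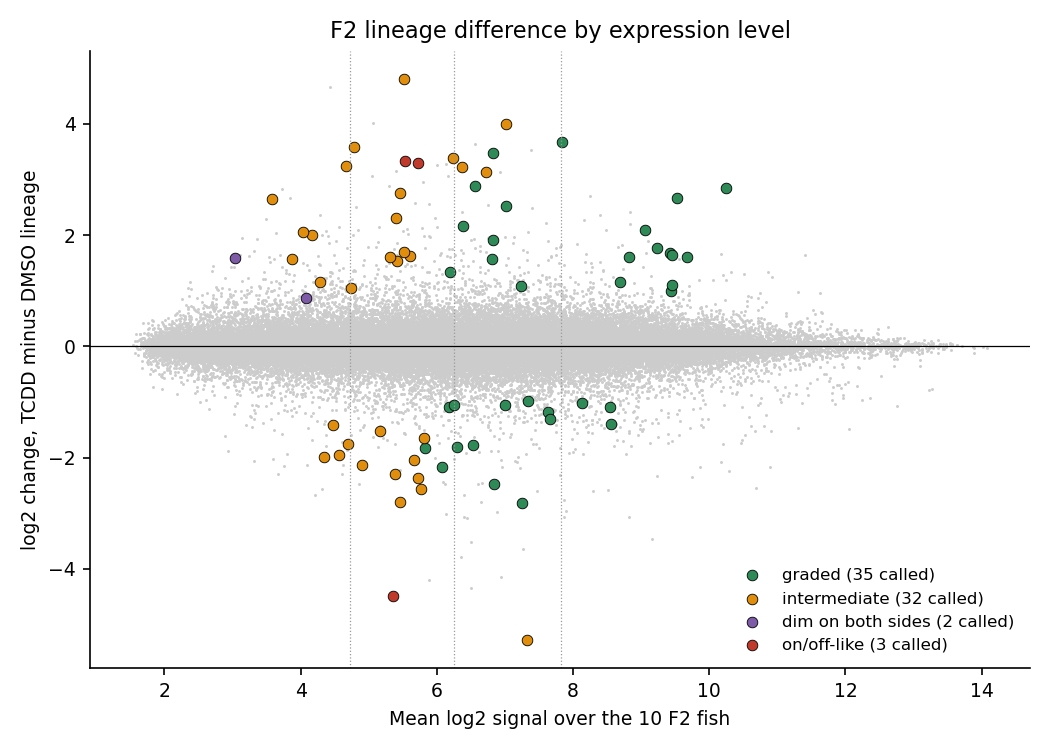
The log2 difference of each of 65942 profiles (TCDD minus DMSO lineage) is plotted against its mean log2 signal over the 10 F2 fish. Grey points did not pass, coloured points are the 72 changed profiles by shape, and dotted lines mark the borders of the 4 bins of mean signal; the coloured points spread over most of the signal range, and ccr11.1 is the lowest point at -5.28.

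Changed profiles were found at every level of expression. The profiles were split by mean signal into 4 bins of equal size, with borders at 4.73, 6.26 and 7.83. From the dimmest to the brightest bin, 12, 26, 19 and 15 profiles had changed, or 0.0728%, 0.158%, 0.115% and 0.0910% of each bin. The second bin thus held the most changes and the dimmest the fewest. By direction, 8 were higher and 4 lower in the dimmest bin, 13 and 13 in the second, 10 and 9 in the third, and 12 and 3 in the brightest. The number of higher profiles thus ranged from 8 to 13 across bins, and 3 of the 29 lower profiles were in the brightest one. The 2 dimmer bins together held 38 changed profiles, a count that was 64 without TCDD fish 1, 23 and 24 without TCDD fish 2 and 5, and 22 and 24 without DMSO fish 2 and 3.

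Among the changed profiles the size of the change also differed between bins, a pattern that was not tested. The median absolute log2 difference of the changed profiles was 1.85 in the dimmest bin, 2.15 in the second, 2.16 in the third and 1.61 in the brightest. Differences of at least 2 were found in 3, 15, 10 and 4 changed profiles, in the same order. The share of all profiles at an unadjusted p under 0.05 was 5.93%, 6.42%, 5.98% and 3.85%, and the share whose lineages did not overlap was 1.40%, 1.54%, 1.26% and 0.861%. By each of these counts the brightest bin held less than the middle ones, although the median absolute difference of all its profiles, 0.131, lay within the range of the other bins (0.123 to 0.147). Names were also unevenly spread, since 6.42% of profiles in the dimmest bin and 54.7% in the brightest had a single symbol. Among the 72 changed profiles 12 had a single symbol (16.7%), against 31.6% of all profiles.

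**Figure D2:**
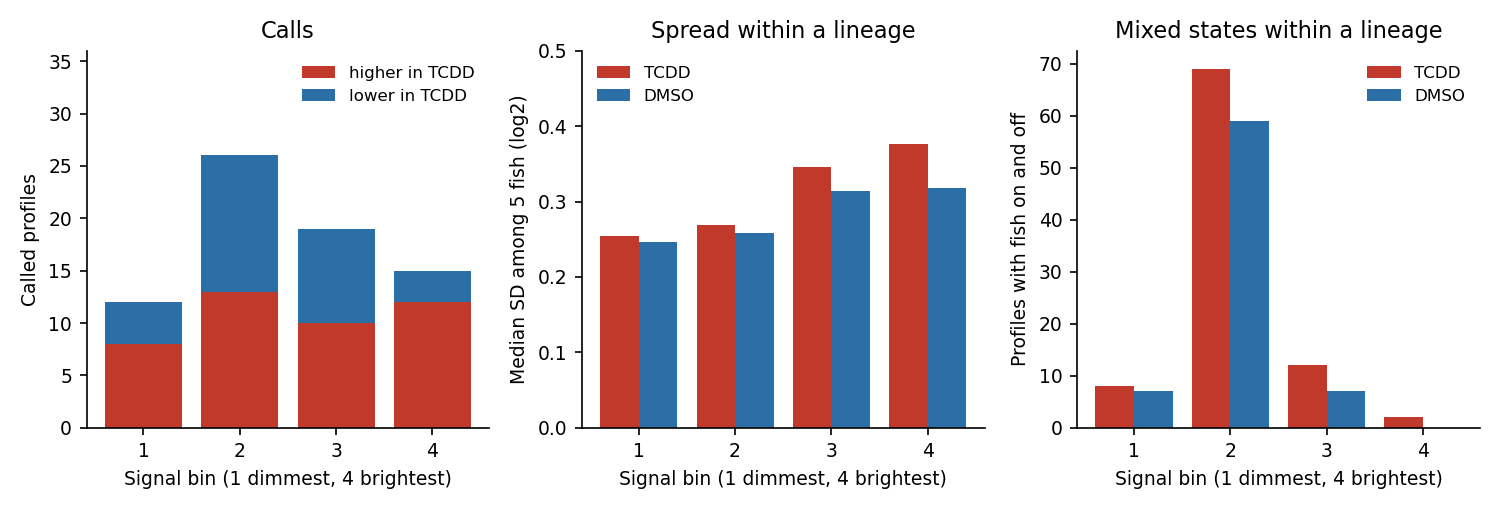
Bars by bin of mean signal show, from left to right, the number of changed profiles by direction, the median SD among 5 fish in each lineage (log2 units), and the number of profiles with at least 2 fish in a high and at least 2 in a low state inside a lineage. The second bin holds 26 changed profiles, the median SD is higher in the TCDD lineage in every bin, and most mixed profiles lie in the second bin. The rule for mixed profiles, with fish under the lower quartile and fish above the median, itself favours a mean in that bin.

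The second question was how many changes resembled a switch. A profile was called on/off-like when all 5 fish of a lineage lay under the lower quartile of their own array and all 5 fish of the other lay above the median of theirs. A position under the lower quartile does not mean that a transcript was absent. Only 3 of 65942 profiles (0.00455%) met this rule, and all 3 were among the changed profiles, as a rule that demands such a separation favours. The count was 9 without TCDD fish 4, of which 7 had changed, and 5 without DMSO fish 4, all changed. Removing a fish can only keep or raise the count of on/off-like profiles, since the rule then asks for fewer fish.

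LOC100006764 was the on/off-like profile that was lower in the TCDD lineage. Its log2 signal was 2.85, 3.15, 2.96, 3.09 and 3.48 in TCDD fish 1 to 5, and 7.05, 8.11, 8.16, 7.05 and 7.63 in DMSO fish 1 to 5. Every TCDD fish was within the lowest 11.1% of its array and every DMSO fish at the 63.5th percentile or higher, with a gap of 3.56 between the nearest fish. The difference was -4.49 ± 0.25 (SE, n = 5 per lineage, limma adjusted p = 8.02e-05).

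Profile 13126029, which has no symbol, was the on/off-like profile with the smallest p among those higher in the TCDD lineage. Its signal was 7.22, 7.18, 7.04, 7.43 and 7.11 in TCDD fish 1 to 5, and 3.76, 3.74, 4.24, 3.83 and 3.77 in DMSO fish 1 to 5. All TCDD fish were high and all DMSO fish low, with an SD of 0.15 and 0.21 inside the lineages. The difference was 3.33 ± 0.13 (SE, limma adjusted p = 5.76e-06), the smallest adjusted p among all profiles.

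The remaining on/off-like profile also had no symbol and was higher in the TCDD lineage. It read 6.37, 7.21, 7.95, 7.74 and 7.58 in TCDD fish 1 to 5 against 4.0, 3.72, 3.78, 4.35 and 4.51 in DMSO fish 1 to 5. The lineages did not overlap, and the difference was 3.30 ± 0.29 (SE, limma adjusted p = 0.00135). Each of these 3 profiles passed the test whichever single fish was removed.

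Most changes were not of this kind. Graded profiles, in which all 10 fish lay at or above the lower quartile, made up 67.4% of all profiles and 35 of the 72 changed ones (48.6%). They changed in 0.0787% of cases, 20 higher and 15 lower, with a median absolute difference of 1.65. The count of 35 was 55 without TCDD fish 1, 17, 19 and 19 without TCDD fish 2, 4 and 5, and 16, 19 and 21 without DMSO fish 2, 3 and 5. Intermediate profiles, which crossed the lower quartile without meeting the on/off rule, made up 14.7% of all profiles and 32 of the changed ones. They changed in 0.330% of cases, 19 higher and 13 lower, with a median absolute difference of 2.10. Profiles under the lower quartile in all 10 fish were 17.9% of the total and held 2 changes, both higher and of 0.86 and 1.59. Because the shape is read from the same 10 values as the test, these shares describe the changes and give no separate support for them.

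The border between the shapes was gradual. In 21 of the 72 changed profiles the whole lower lineage lay under the lower quartile, 12 of them higher and 9 lower in the TCDD lineage. In 22 the lineages lay on opposite sides of the array median, and in 19 both lay wholly above it. Over all profiles, 37 had a lineage wholly under the lower quartile and the other wholly above it, 19 with TCDD higher and 18 with DMSO higher, and 15 of these had changed. Moving the low border to the 20th or the 30th percentile gave 2 or 7 on/off-like profiles, and moving the high border to the 40th or 60th gave 6 or 2. Applying the borders to the mean percentile rank of a lineage instead of to every fish gave 36.

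ccr11.1 had the largest absolute difference of the changed profiles but was classed as intermediate. It read 5.65, 4.60, 4.82, 4.07 and 4.32 in TCDD fish 1 to 5, and 9.50, 10.61, 10.48, 9.41 and 9.86 in DMSO fish 1 to 5. All DMSO fish lay above the 91.5th percentile of their arrays, while the TCDD fish straddled the lower quartile and reached the 41.0th percentile in fish 1. The difference was -5.28 ± 0.33 (SE, limma adjusted p = 0.00016), and no single fish removed the call.

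si:ch211-181d7.1, an uncharacterised locus, was the leading graded profile that was higher in the TCDD lineage. It read 7.10, 8.46, 8.30, 8.16 and 7.96 in TCDD fish 1 to 5, and 5.25, 4.93, 5.10, 5.35 and 4.94 in DMSO fish 1 to 5. TCDD fish 1 lay lowest of its lineage and still 1.75 above the highest DMSO fish. The difference was 2.88 ± 0.24 (SE, limma adjusted p = 0.0012). The call was lost with all 20 arrays in the fit (adjusted p = 0.0698) and without TCDD fish 3 and 4 and DMSO fish 4 and 5 (0.0733).

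Profile 13303978, with no symbol, led the graded profiles that were lower in the TCDD lineage. It read 5.11, 4.76, 4.92, 4.77 and 4.99 in TCDD fish 1 to 5, and 6.38, 6.77, 7.13, 6.47 and 6.95 in DMSO fish 1 to 5. The SD was 0.15 and 0.32 inside the lineages, whose nearest fish were 1.28 apart. The difference was -1.83 ± 0.16 (SE, limma adjusted p = 0.00135). It too did not pass with all 20 arrays (adjusted p = 0.063) or without the same 4 fish (0.0707).

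The gene mrps22 encodes a protein of the small subunit of the mitochondrial ribosome. Its changed profile, in the dimmest bin, read 5.64, 4.63, 5.28, 5.44 and 4.83 in TCDD fish 1 to 5 and 3.07, 3.63, 2.96, 3.29 and 2.90 in DMSO fish 1 to 5. Every DMSO fish was within the lowest 12.4% of its array and every TCDD fish at the 24.6th percentile or higher. The lineages were 1.00 apart at their nearest fish, and the difference was 1.99 ± 0.22 (SE, limma adjusted p = 0.0054). It did not pass without TCDD fish 3 and 4 and DMSO fish 4 and 5, an alternative chosen after seeing the data (adjusted p = 0.192). A second, brighter profile of mrps22 averaged 7.99 and 7.71 and differed by 0.28 (adjusted p = 0.882), so the profiles of this gene did not give the same result.

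mrpl47 encodes a protein of the large subunit of the same ribosome and was among the brightest of the changed profiles. It read 10.66, 9.88, 9.44, 10.28 and 10.33 in TCDD fish 1 to 5 and 8.58, 8.36, 8.31, 8.52 and 7.95 in DMSO fish 1 to 5. Both lineages were far above the array median and did not overlap, with a difference of 1.77 ± 0.22 (SE, limma adjusted p = 0.0156). The call was lost when any of 5 fish was removed, with an adjusted p of up to 0.0625, and with all 20 arrays (0.0644). A second mrpl47 profile averaged 5.92 and 5.27 and differed by 0.66 (adjusted p = 0.17).

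coq7, an enzyme of ubiquinone synthesis, read 8.27, 7.53, 7.54, 7.67 and 7.83 in TCDD fish 1 to 5 and 6.69, 6.96, 6.54, 6.65 and 6.62 in DMSO fish 1 to 5. All TCDD fish were above all DMSO fish, by at least 0.58, and the difference was 1.08 ± 0.16 (SE, limma adjusted p = 0.0386). Removing any of 8 fish ended this call, with an adjusted p of up to 0.138.

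spcs3, a subunit of the signal peptidase of the endoplasmic reticulum, read 9.11, 9.0, 9.42, 9.80 and 9.01 in TCDD fish 1 to 5 and 7.88, 8.28, 7.99, 8.36 and 8.06 in DMSO fish 1 to 5. The lineages were 0.64 apart, and the difference was 1.16 ± 0.18 (SE, limma adjusted p = 0.0477). It did not pass with fewer fish, since the adjusted p was between 0.0559 and 0.16 with any 1 left out and 0.264 with all 20 arrays.

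zgc:113119, an uncharacterised gene, read 7.80, 7.62, 7.05, 7.03 and 7.85 in TCDD fish 1 to 5 and 5.14, 5.15, 5.68, 5.18 and 5.40 in DMSO fish 1 to 5. Its lineages were 1.35 apart and differed by 2.16 ± 0.20 (SE, limma adjusted p = 0.00176), a call that no single fish ended but that was lost with all 20 arrays in the fit (adjusted p = 0.271). A second profile of the gene also averaged more in the TCDD lineage, 8.10 against 6.93, which did not pass (adjusted p = 0.211).

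Of the named genes that were lower in the TCDD lineage, tm6sf2b, a membrane protein of the family tied to lipid export in mammals, had the smallest difference. It read 5.58, 5.54, 5.49, 5.64 and 5.91 in TCDD fish 1 to 5 and 6.91, 7.08, 6.22, 6.66 and 6.72 in DMSO fish 1 to 5. The lineages were 0.31 apart, between TCDD fish 5 and DMSO fish 3, and differed by -1.09 ± 0.16 (SE, limma adjusted p = 0.046). The call was lost on removal of any of 9 fish, with an adjusted p of up to 0.168, and with all 20 arrays (0.217).

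LOC100002043, an uncharacterised locus, read 5.06, 4.74, 5.23, 5.26 and 4.69 in TCDD fish 1 to 5 and 7.09, 7.53, 6.13, 7.34 and 7.75 in DMSO fish 1 to 5. DMSO fish 3 was the lowest of its lineage but above every TCDD fish. The difference was -2.18 ± 0.28 (SE, limma adjusted p = 0.0167), and it did not pass without TCDD fish 2, TCDD fish 5 or DMSO fish 2 (adjusted p of up to 0.0654).

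**Figure D3:**
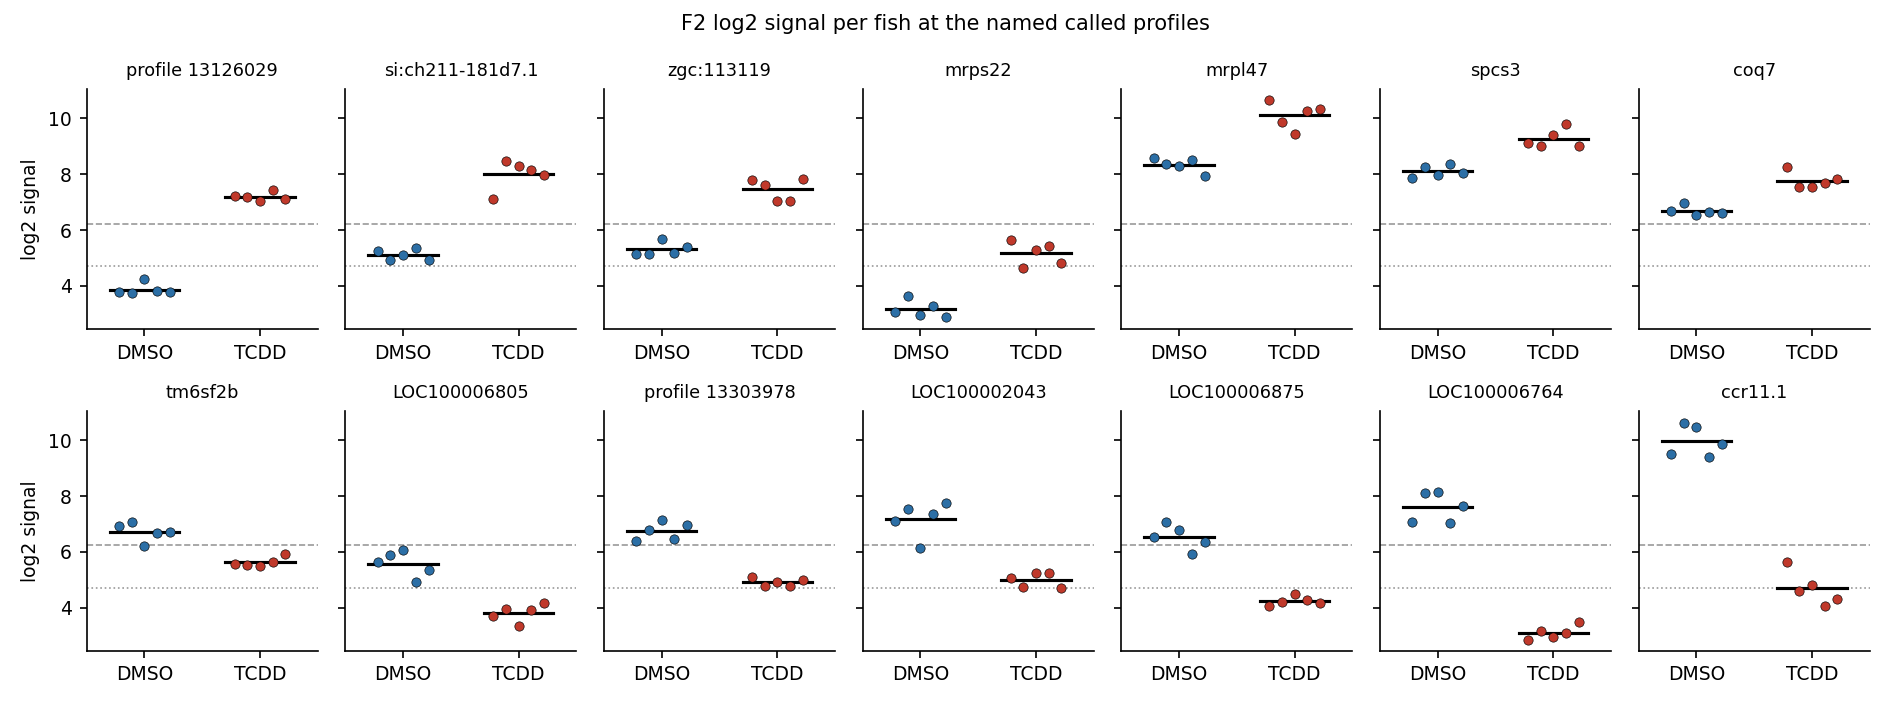
Each panel shows the log2 signal of 5 DMSO fish (blue) and 5 TCDD fish (red) at a named changed profile, ordered from 3.33 to -5.28 in log2 difference, with a black bar at each mean. The dashed line is the array median and the dotted line the lower quartile, both averaged over the 10 arrays; the lineages overlap in none of the panels, and only 13126029 and LOC100006764 run from wholly under the dotted line to wholly above the dashed line.

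Many changed profiles were neighbours in the order of the array's identifiers. Of consecutive named features, 98.2% were on the same chromosome in the gene table, a share that says nothing of stretches without names. Joining changed profiles that were at most 20 positions apart, a rule chosen after seeing the data, gave 11 runs. These held 35 of the 72 profiles (48.6%), whereas changed features numbered 1 in 845 over the whole array. Whether neighbours measure separate transcripts is not known here, so these shares give no test of clustering. For the same reason, the counts of changed profiles by direction, bin and shape may count a locus more than once. In 7 runs all changed profiles were higher in the TCDD lineage, in 3 all were lower, and in 1 they went both ways. The named features on either side were on the same chromosome for 7 runs. For the other 4 runs, with 11 changed profiles, the nearest named feature was 8554 to 14849 positions away, so their place in the genome is not known here. Of the named genes, mrps22, mrpl47, si:ch211-181d7.1, LOC100002043 and 3 further LOC genes lay in runs, while ccr11.1, zgc:113119, coq7, spcs3 and tm6sf2b did not.

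The run in both directions began with LOC100006764 and ended with profile 13126029, so that 2 of the 3 on/off-like profiles were the first and the last of 12 successive positions, with opposite directions. Of its 12 profiles 7 had changed, first 4 that were lower and then 3 that were higher in the TCDD lineage, and 9 had an unadjusted p under 0.05. LOC100006875, among the lower ones, read 4.07, 4.19, 4.49, 4.26 and 4.17 in TCDD fish 1 to 5 and 6.55, 7.06, 6.78, 5.92 and 6.37 in DMSO fish 1 to 5. Its lineages were 1.44 apart and differed by -2.30 ± 0.20 (SE, limma adjusted p = 0.00135).

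LOC100006805, in the same run, read 3.70, 3.95, 3.33, 3.90 and 4.17 in TCDD fish 1 to 5 and 5.64, 5.88, 6.05, 4.90 and 5.37 in DMSO fish 1 to 5. DMSO fish 4 was lowest of its lineage here, as it was for LOC100006875 and LOC100006764. The difference was -1.76 ± 0.23 (SE, limma adjusted p = 0.0188), a call lost on removal of any of 6 fish, with an adjusted p of up to 0.0698. The higher profiles of this run, without symbols, differed by 3.23, 1.58 and 3.33. LOC100151078, the named gene just before the run, differed by -0.33 and did not pass.

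The run that began with mrpl47 held 8 profiles between tmem131 and pex5la. Their identifiers ran without a break from 13221032 to 13221039, and whether they measure separate transcripts is not known here. All 8 were higher in the TCDD lineage at an unadjusted p under 0.05, and 6 had changed after adjustment, by 1.61 to 2.84. These were bright profiles, with TCDD means from 10.11 to 11.67 and DMSO means from 8.01 to 8.87. Outside the run, tmem131 differed by -0.14 and pex5la by 0.08, neither of which passed. Of the 15 changed profiles in the brightest bin, 6 came from this run.

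The run with si:ch211-181d7.1 lay between farsb and ap1s3a and consisted of 3 profiles, all changed, by 2.88 to 3.48. The second on/off-like profile that was higher in the TCDD lineage was its first member. The named flanking genes farsb and ap1s3a differed by 0.11 and 0.14 and did not pass. A run of 5 profiles that began with 13303978, with no named gene nearby, had 4 changed ones, all lower, by -2.04 to -1.06. mrps22, beside ech1, formed a run with 1 neighbour that was higher by 1.57.

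A further 7 changed profiles were each carried by 3 or 4 identical features, and all 7 were higher in the TCDD lineage. They had differences of 1.34 to 3.59 and no symbol, and 5 of them lay in runs. Counted by feature, the 72 profiles correspond to 89 features.

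**Figure D4:**
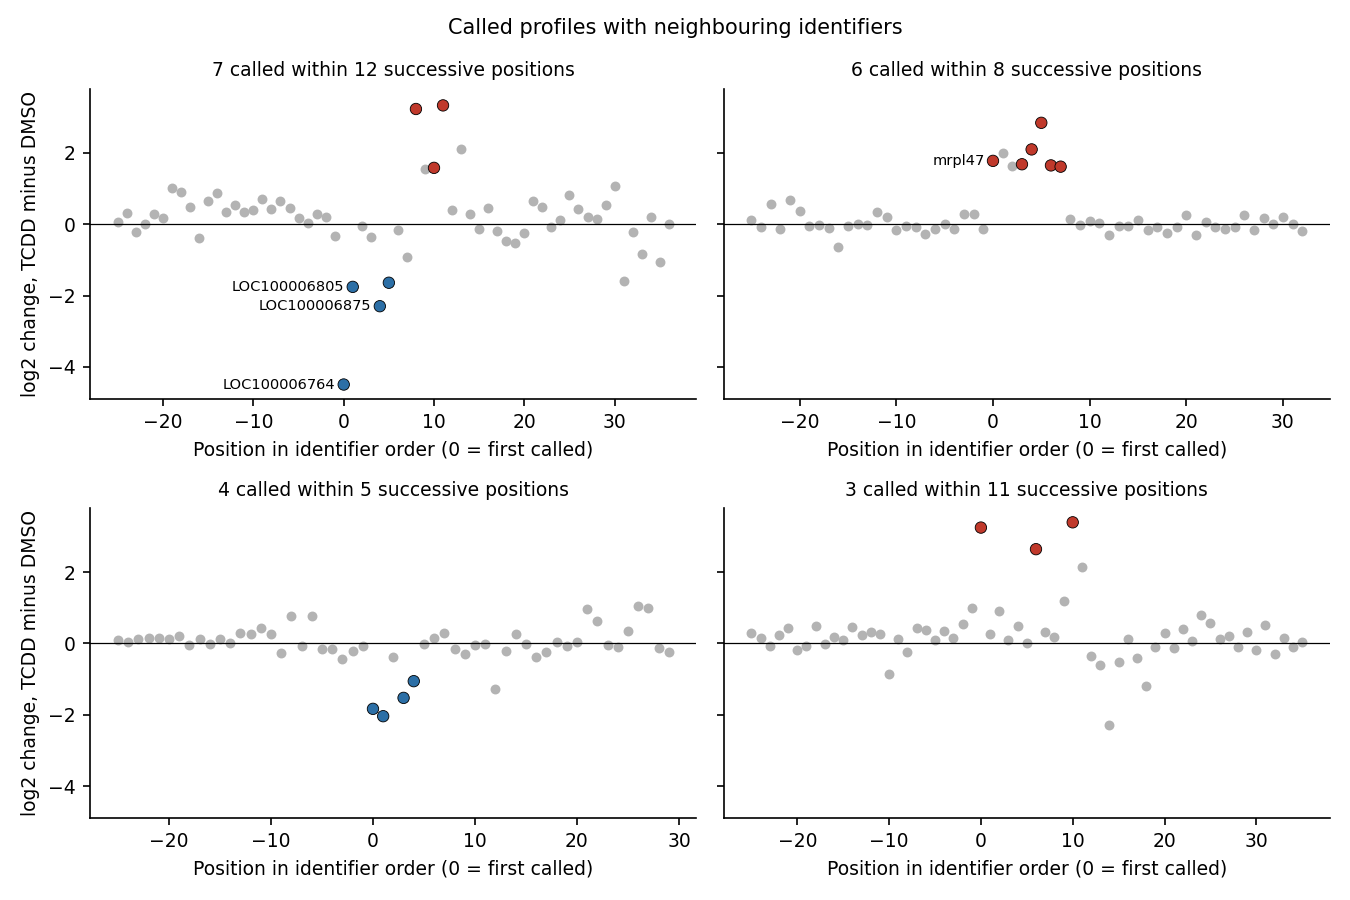
The log2 difference of profiles (TCDD minus DMSO lineage) is plotted in order of array identifiers around the 4 runs with the most changed profiles or the earliest identifiers among equals. Coloured points changed (red higher, blue lower in the TCDD lineage), grey points did not; in the mrpl47 run the 6 changed profiles lie between 1.61 and 2.84, while the profiles on either side lie near 0.

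Genes of the AHR pathway were examined as a list, since TCDD acts through this receptor. Of 11 genes on the list 8 were measured, and cyp1a, cyp1c1 and cyp1c2 were not among the named features. None of the 8 changed in either direction and none had an unadjusted p under 0.05. Over all profiles these shares were 0.109% and 5.55%, so that a list of 8 without a call is near the background. The list had a median difference of 0.22 against -0.005 over all profiles. The receptor genes ahr1a, ahr1b and ahr2 differed by 0.30, 0.30 and -0.01, and the repressor genes ahrra and ahrrb by 0.15 and 0.73. For the target genes cyp1b1, a cytochrome P450, tiparp, an ADP-ribosyltransferase that damps the receptor, and nqo1, a quinone reductase, the differences were 0.02, 0.10 and 0.45.

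ahr1a varied widely between fish. It read 4.89, 5.31, 9.63, 6.22 and 5.21 in TCDD fish 1 to 5, and 5.01, 5.17, 5.60, 7.93 and 6.06 in DMSO fish 1 to 5. TCDD fish 3 and DMSO fish 4 were high, the same fish that stood lowest in correlation with the others. ahr2 read 9.16, 9.50, 9.94, 10.35 and 9.46 in the TCDD lineage and 9.25, 10.01, 10.18, 9.57 and 9.46 in the DMSO lineage, with complete overlap.

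Among the targets, nqo1 read 8.06, 8.21, 10.10, 8.05 and 8.07 in TCDD fish 1 to 5 and 7.50, 7.92, 7.48, 8.77 and 8.57 in DMSO fish 1 to 5, again highest in TCDD fish 3. cyp1b1 lay between 5.04 and 5.92 in all 10 fish and tiparp between 9.27 and 10.29. The repressor gene ahrrb read 7.67, 7.89, 6.07, 6.87 and 6.76 in the TCDD lineage and 6.87, 6.48, 6.25, 5.71 and 6.29 in the DMSO lineage, where TCDD fish 3 was the lowest of its lineage and overlapped the DMSO fish (difference 0.73, limma adjusted p = 0.916).

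The other lists gave no changed member. They share profiles: star, cyp17a1 and cyp11c1 are in both the steroid and Leydig lists, and sycp3 in both the meiosis and germ cell lists. The 6 genes of steroid hormone synthesis had a median difference of 0.29, from -0.23 to 0.66, and the 5 measured of 6 meiosis genes a median of 0.31, from -0.05 to 0.41. The Sertoli cell markers differed by -0.47 to 0.05, the Leydig cell markers by 0.04 to 0.66 and the germ cell markers by -0.30 to 0.38. None of these lists had a member at an unadjusted p under 0.05, while the share over all profiles was 5.55%.

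The third question was how much fish differed inside each lineage. The median SD among 5 fish was 0.303 in the TCDD lineage and 0.281 in the DMSO lineage, and the SD was larger in the TCDD lineage in 57.7% of profiles. An SD of at least 1 was found in 2910 profiles in the TCDD lineage and 2124 in the DMSO lineage, with 1348 in both. The log2 ratio of the summed variances was 0.33 (TCDD over DMSO), with an exact two-sided permutation p of 0.484 over every assignment of the 10 fish to the lineages (0.944 after adjustment over 3 such tests). Without TCDD fish 3 this ratio was -0.13, and without DMSO fish 4 it was 0.70, so 1 fish set its sign.

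The spread depended on level. From the dimmest to the brightest bin, the median SD was 0.255, 0.269, 0.347 and 0.376 in the TCDD lineage and 0.247, 0.258, 0.315 and 0.318 in the DMSO lineage. The share of profiles with the larger SD in the TCDD lineage was 51.7%, 53.3%, 59.1% and 66.7%. The difference in median spread between lineages was thus widest in the brightest profiles. This pattern was not tested, nor recomputed by bin with a fish left out. Over all profiles the median SD was 0.257 in the TCDD lineage without fish 3 and 0.245 in the DMSO lineage without fish 4. The mean correlation within lineages minus that between lineages was 0.000504 (exact two-sided permutation p = 0.944, also after adjustment), a value that turned negative without DMSO fish 2 (-0.00119), 3 (-0.00158), 4 (-0.000792) or 5 (-0.00175).

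Tested profile by profile on the deviations from the lineage mean, the spread differed in 0 of 65942 profiles (0.0%, limma, smallest adjusted p = 0.0623). With 5 fish per lineage such a test has little power per profile, so a lack of calls does not show equal spread. At an unadjusted p under 0.05, 4389 profiles differed (6.66%), 2602 more variable in the TCDD lineage and 1787 in the DMSO lineage. With 1 fish left out the count of profiles that passed was between 4, without DMSO fish 4, and 47, without TCDD fish 2. It was 32, 25, 11 and 39 without TCDD fish 1, 3, 4 and 5, and 12, 14, 6 and 10 without DMSO fish 1, 2, 3 and 5. A lineage of 4 fish split into 2 high and 2 low has nearly equal deviations, so the form of the test makes a small p easier to reach. These counts therefore give no separate evidence of a spread difference.

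The profiles named for the smallest p in the spread test were each split into high and low fish inside a lineage. A test on absolute deviations favours this form over 1 fish set apart, so other forms of spread are not shown by these profiles. Profile 13271026, more variable in the TCDD lineage, read 5.62, 5.72, 10.45, 10.23 and 5.19 in TCDD fish 1 to 5, and between 5.50 and 5.77 in all DMSO fish. Profile 13164183 read 3.54, 3.01, 9.24, 8.66 and 3.69 in TCDD fish 1 to 5, and between 3.22 and 3.76 in the DMSO fish. In both, TCDD fish 3 and 4 were high and the other 8 fish low.

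More variable in the DMSO lineage were fgf19, a secreted fibroblast growth factor, and ftr50, of the finTRIM family known in fish for antiviral roles. fgf19 read 4.77, 4.99, 4.91, 7.04 and 7.34 in DMSO fish 1 to 5 and between 4.59 and 4.82 in the TCDD fish, so that DMSO fish 4 and 5 were high. ftr50 read 3.98, 10.41, 10.55, 11.20 and 3.79 in DMSO fish 1 to 5, and 3.59, 3.45, 3.23, 4.64 and 3.98 in TCDD fish 1 to 5. Here DMSO fish 2, 3 and 4 were high and the other 7 fish low, and the lineage difference of -4.21 did not pass (limma adjusted p = 0.682).

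Such high and low states inside a lineage were counted over all profiles. A profile was called mixed in a lineage when at least 2 fish lay above the array median and at least 2 under the lower quartile. There were 91 mixed profiles in the TCDD lineage and 73 in the DMSO lineage, with 18 in both and none among the 72 changed profiles. The difference of 18 had an exact two-sided permutation p of 0.857 (0.944 after adjustment over 3 tests), and it was negative, between -51 and -18, on removal of any TCDD fish, which itself lowers the TCDD count. Mixed profiles thus outnumbered the 3 on/off-like ones in either lineage, under a rule that asks less of each fish.

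The mixed profiles were shared out unevenly between fish. In the TCDD lineage fish 3 and 4, and no others, were high in 45 of the 91, and in the DMSO lineage fish 4 and 5, and no others, in 48 of the 73. DMSO fish 4 was also high in 42 of those 45, and TCDD fish 3 in 34 of those 48. Without TCDD fish 3 the TCDD lineage had 22 mixed profiles, and without DMSO fish 4 the DMSO lineage had 9.

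apoa4b.1, an apolipoprotein, is an example that was high in fish of both lineages. It read 3.89, 4.42, 10.37, 6.53 and 4.25 in TCDD fish 1 to 5 and 4.02, 4.36, 4.66, 9.60 and 7.07 in DMSO fish 1 to 5. TCDD fish 3 and 4 and DMSO fish 4 and 5 were high, the lineages overlapped, and their difference was -0.05. itln2, an intelectin (a carbohydrate-binding lectin), read 4.65, 4.27, 5.66, 10.48 and 4.47 in the TCDD lineage and 5.18, 4.57, 4.68, 11.73 and 9.59 in the DMSO lineage, with TCDD fish 4 and DMSO fish 4 and 5 high.

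A smaller number of profiles were mixed in a lineage and uniform in the other. Of the 91 mixed in the TCDD lineage, 8 had all DMSO fish under the lower quartile and 7 had all DMSO fish above the median, and of the 73 mixed in the DMSO lineage the corresponding counts were 2 and 3. mhc2dgb, a gene of the major histocompatibility complex class II, read 3.85, 6.98, 10.41, 8.83 and 3.97 in TCDD fish 1 to 5 and between 3.98 and 4.38 in all DMSO fish. Its TCDD fish 2, 3 and 4 were above every DMSO fish, fish 1 and 5 were not, and the difference of 2.68 did not pass (limma adjusted p = 0.854).

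zgc:153409, an uncharacterised gene, showed the opposite arrangement. It read 10.17, 10.35, 8.62, 3.44 and 3.54 in TCDD fish 1 to 5 and between 9.47 and 10.12 in the DMSO fish, so that TCDD fish 4 and 5 alone were low. The difference of -2.58 did not pass (limma adjusted p = 0.961).

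ubald1a was split in both lineages. It read 6.14, 2.38, 2.72, 6.70 and 2.42 in TCDD fish 1 to 5 and 6.98, 2.33, 7.35, 2.75 and 6.71 in DMSO fish 1 to 5. High values, from 6.14 to 7.35, were found in 2 TCDD and 3 DMSO fish, and the other 5 fish lay between 2.33 and 2.75. No fish lay between these ranges. The examples from apoa4b.1 onward were chosen after their values were seen.

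**Figure D5:**
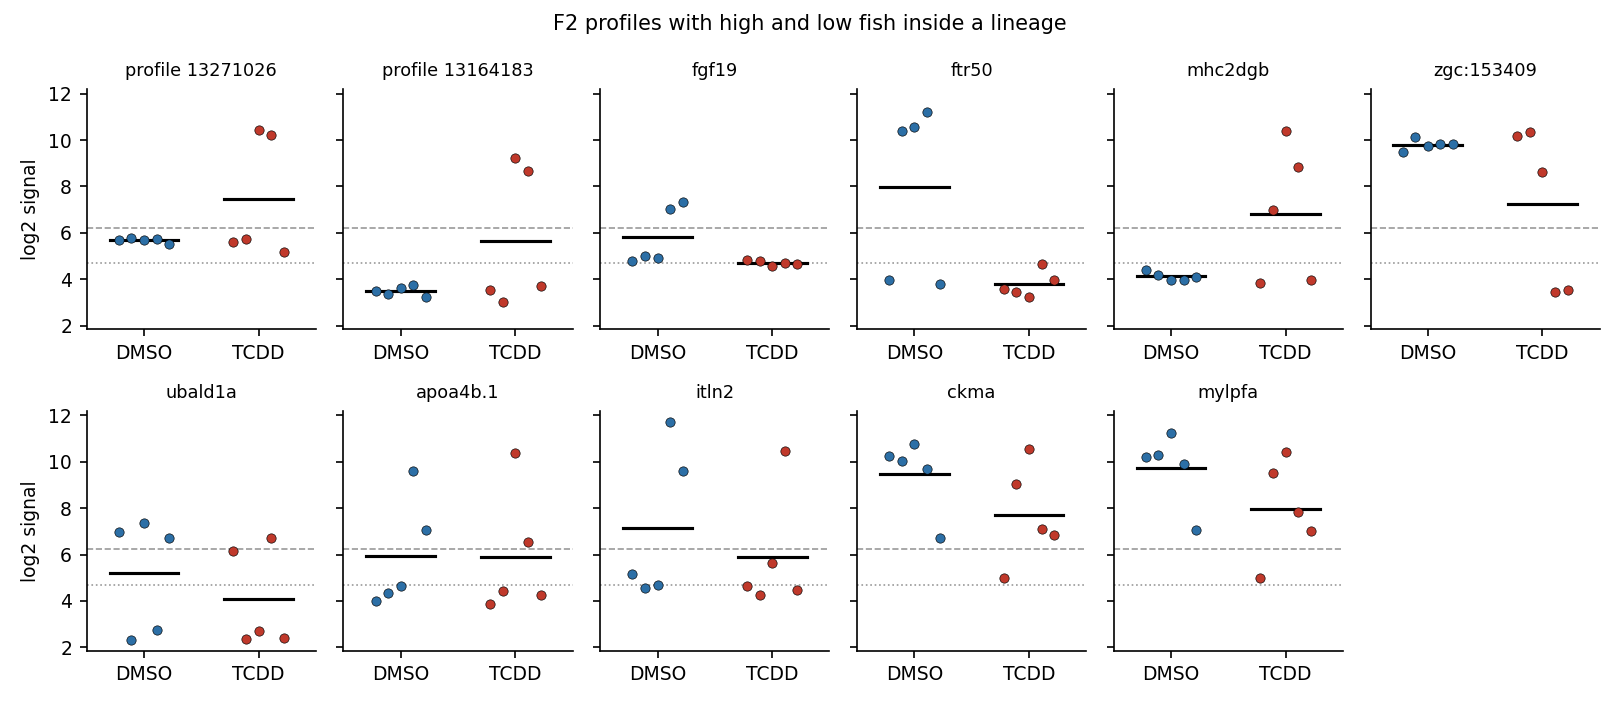
Each panel shows the log2 signal of 5 DMSO fish (blue) and 5 TCDD fish (red), in replicate order within each lineage, with a black bar at the mean, for profiles named for their spread and for the muscle markers. The dashed line is the array median and the dotted line the lower quartile; ftr50 runs from 3.79 to 11.20 among the DMSO fish, and 13271026 is high in TCDD fish 3 and 4 alone.

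The spread inside the lineages was also taken for the changed profiles, which a test that weighs small spread had selected. For profiles that were higher in the TCDD lineage the median SD was 0.402 in the TCDD and 0.296 in the DMSO fish, and for those that were lower it was 0.291 and 0.327. The lineage with the higher signal thus had the larger median SD in both directions, 0.392 against 0.292 over all 72 profiles, beside 0.303 (TCDD) and 0.281 (DMSO) over all 65942. The lower lineage had the larger SD in 31 of the 72.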

How the data were processed

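Testis RNA of 10 F2 fish was measured on 1 Affymetrix array each. The deposited values were log2 signals per feature, a scale read from the values. The tool was Affymetrix Expression Console, per the submitters' processing notes, and its version, the summarisation and the normalization are not given in the sources used here. Values were used as deposited, with no filter on low signal and no separation of control features, and precision is limited by the number of arrays. Groups and replicate numbers came from the sample titles. The members, lists and tests were chosen with earlier results of these data known.

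Features with identical values on all 10 arrays were entered once (65942 profiles). A model with a mean for each lineage was fitted to all profiles with limma 3.58.1 (lmFit, then eBayes, no trend, not robust; R 4.3.3), two-sided, with Benjamini-Hochberg adjustment and a threshold of 0.05. The same fit to absolute deviations from the lineage mean, rescaled for group size, tested the spread. Whole-lineage measures were tested with exact permutation of the lineage labels, where the smallest possible p is 0.00794. The scripts were tested on simulated data. For the spread test, the check that had to pass used larger groups than the lineages here.

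Symbols came from GEO's platform annotation, which can be old: 20806 features had 1 symbol, 855 several and 53551 none. For 20323 features with 1 symbol the Entrez identifier was found in a RefSeq table. This look-up changed 1 symbol. No coordinates are given, because the build of that table is not known to be the array's. Named were the 2 higher and 2 lower profiles with the smallest p by shape, up to 12 higher and 12 lower changed profiles with 1 symbol, the 2 profiles with the smallest p for each direction of spread, and list members. The germ cell marker nanos2 was also not among the named features, and 1 gene of the meiosis list is not reported here. Alternatives were other scaling, filters, moderation settings, array sets, borders and single fish left out.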

Additional observations from a re-analysis of the deposited data

Results flagged for a closer look

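Groups of 5 fish were screened for a fish set apart from its lineage, by the gap to its nearest neighbour as a share of the lineage's range (Dixon's test). Of 78 groups examined 5 met the 95% criterion. A rate of 1 in 20 would give 3.9 among independent groups picked without regard to their values. The groups here shared the same fish and included profiles chosen for their values, so the counts give no comparison with chance. Profile 13126029 had DMSO fish 3 at a log2 signal of 4.24, with the nearest DMSO fish at 3.83, and all TCDD fish stayed above it. ahr1a was at 9.63 in TCDD fish 3, with the next TCDD fish at 6.22. nqo1 was at 10.10 in the same fish, with the next at 8.21. itln2 was at 10.48 in TCDD fish 4, with the next at 5.66. ckma, a muscle marker, was at 6.72 in DMSO fish 5, with the next at 9.69. None of these groups was tested for a cause.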

How the results depend on the processing

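The count of 72 changed profiles lay between 70 and 96 with every feature entered, profiles defined over 20 arrays, median centring, quantile normalization, an intensity trend or robust moderation, and 68 to 72 of the 72 kept their call. The 96 was reached with every feature entered and is a count of features, of which the 72 profiles hold 89. With all 20 arrays in the fit the count of profiles was 48, and only 31 of the 72 kept their call. It was 185 with array weights, 28 without the profiles whose mean signal was under the median, 44 with the replicate block, of which 39 were shared, and 7 with a 2-fold threshold. Of alternatives chosen after seeing the data, leaving out TCDD fish 3 and 4 and DMSO fish 4 and 5 gave 36. Changed profiles in the 2 dimmer bins of signal numbered 38, against 91 with array weights, 25 with the replicate block, 5 with the 2-fold threshold and 19 without those 4 fish. The graded changed profiles numbered 35, against 108 with array weights, 21 with all 20 arrays, 15 with the replicate block, 1 with the 2-fold threshold, 57 without TCDD fish 3 and DMSO fish 4, and 12 without the 4 fish. On/off-like changed profiles numbered 3, against 0 without the dimmer profiles, 6 with the low border at the 30th percentile, 6 with the high border at the 40th, 6 without TCDD fish 3 and DMSO fish 4, and 12 without the 4 fish. On/off-like profiles in all numbered 7 with the low border at the 30th percentile and 6 with the high border at the 40th. They numbered 36 with the lineage mean of percentile ranks, and 6 without TCDD fish 3 and DMSO fish 4. Fewer fish make the on/off rule easier to meet. Spread calls numbered 4 with array weights and 40 without TCDD fish 3 and DMSO fish 4. With a fish left out of a lineage, the spread test favours an even split into high and low fish, as said above. The correlation within minus between lineages was -0.00353 without the dimmer profiles. With 1 fish left out in turn, the ranges were 41 to 120 changed profiles, 3 to 7 on/off-like ones changed and 3 to 9 in all, 16 to 55 graded, 22 to 64 in the dimmer bins, 4 to 47 spread calls, -0.134 to 0.698 for the log2 variance ratio, -0.00175 to 0.00399 for the correlation difference and -51 to 83 for the difference in mixed profiles. The 14 named changed profiles gave 314 values under the alternatives, of which 233 passed, 81 did not and 0 changed sign. A change of sign could hardly arise, since the lineages did not overlap in any of the 14 profiles. Of these profiles, 6 lost the call with all 20 arrays (adjusted p 0.063 to 0.271) and 7 with the replicate block (0.0599 to 0.148, mrps22 at 0.0732). The deviations of same-numbered fish of the lineages correlated at 0.598, 0.236, -0.0488, 0.390 and -0.138. So few values cannot tell whether the numbers pair fish, and the labels do not say. The causes of these shifts were not tested. All 3 on/off-like profiles had a mean signal under the median, so leaving out the dimmer profiles left none of them. The bins of signal gave no value with every feature entered or without the dimmer profiles, nor the mixed profiles without the 4 fish.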
